A study of Mus musculus with 6 samples.

Results

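Gt(ROSA)26Sor, the noncoding RNA of the Rosa26 locus, was described together with 9 protein-coding genes that lie near it on mouse chromosome 6. The members were chosen by symbol and map position, and all 10 were found among the 23412 rows of the deposited count table. RNA was counted in splenic germinal centre B cells, sorted as B220+, GL7+ and Fas+ (CD95+) on day 10 after sheep red blood cells were given into the peritoneum. The DAF-TM mice carried Cg1-cre(+/-) and R26-DAF-TM(fl/fl), a conditional DAF transgene on both copies of Rosa26. The control mice carried the same Cg1-cre(+/-) allele. This allele expresses Cre recombinase with the gene of the IgG1 constant region in B cells that have entered a germinal centre. In the controls, 1 label field writes the transgene locus as DAF-Tg(+/+), which was read as a label only. It was not taken to say whether the control copies of Rosa26 carry the transgene. Background strain, age and the number of mice behind a library were not given in the sources used here.

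The labels list 3 replicates per group. DAF-TM replicates 2 and 3 had the same count in all rows, a difference below sampling noise, and were therefore counted as 1 sample, DAF-TM library 2. This left 2 DAF-TM libraries, with 11280400 and 10684753 counts, and 3 control libraries, with 9627306, 12783965 and 7257339 counts. DAF-TM library 1 held both Xist, at 297 CPM (counts scaled to library size with TMM factors), and 4 Y-linked genes summing to 289 CPM. Xist had 720 CPM in DAF-TM library 2 and 759 CPM in control library 1, with Y-linked sums of 0 and 0.106 CPM. Control libraries 2 and 3 had Y-linked sums of 708 and 478 CPM, with Xist at 2.63 and 2.86 CPM. The groups were thus not balanced for these genes. The part of this imbalance in other differences between the groups was not tested. Cd55, the mouse gene for DAF, had 713 and 726 CPM in the DAF-TM libraries, against 28.7, 34.4 and 23.5 CPM in the controls. All 12 germinal centre B cell markers examined were expressed in every library, and none passed the test between groups. Of the 12, 11 had negative log2 fold changes (median -0.11), against 46.1% of all genes, and 2 had an unadjusted p under 0.05 (edgeR). Bcl6 had 214 and 239 CPM in the DAF-TM libraries, against 287, 278 and 313 CPM in the controls (log2 fold change -0.37, edgeR adjusted p = 0.795).

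Rosa26 is a locus that was found by a gene trap in embryonic stem cells and is transcribed in nearly every mouse tissue. Its RNA has no known protein product, and mice without it are viable, so the locus is widely used as a landing place for transgenes. Such knock-ins are commonly placed in the first intron, where they interrupt the locus's own transcript, and a floxed stop element often keeps the transgene silent until Cre removes it. The labels do not give the insertion site, the promoter or the sequence of the cassette in these mice.

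The genes around Rosa26 are packed closely and partly overlap. In the GENCODE M21 annotation (GRCm38, the same build as mm10), Gt(ROSA)26Sor (ENSMUSG00000086429.9) lies on the minus strand at chr6:113067428-113077333. Setd5 starts on the opposite strand, at chr6:113077365-113153435, so both genes are transcribed away from a gap of 31 bases (17 bases in RefSeq). Thumpd3, on the plus strand at chr6:113046225-113068273, runs towards Gt(ROSA)26Sor from the other side, and 145 exonic bases at their ends belong to both genes. Annotated Gt(ROSA)26Sor transcripts number 4. The stretch common to their first introns, chr6:113071436-113077067, spans 5632 bases.

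**Figure D1:**
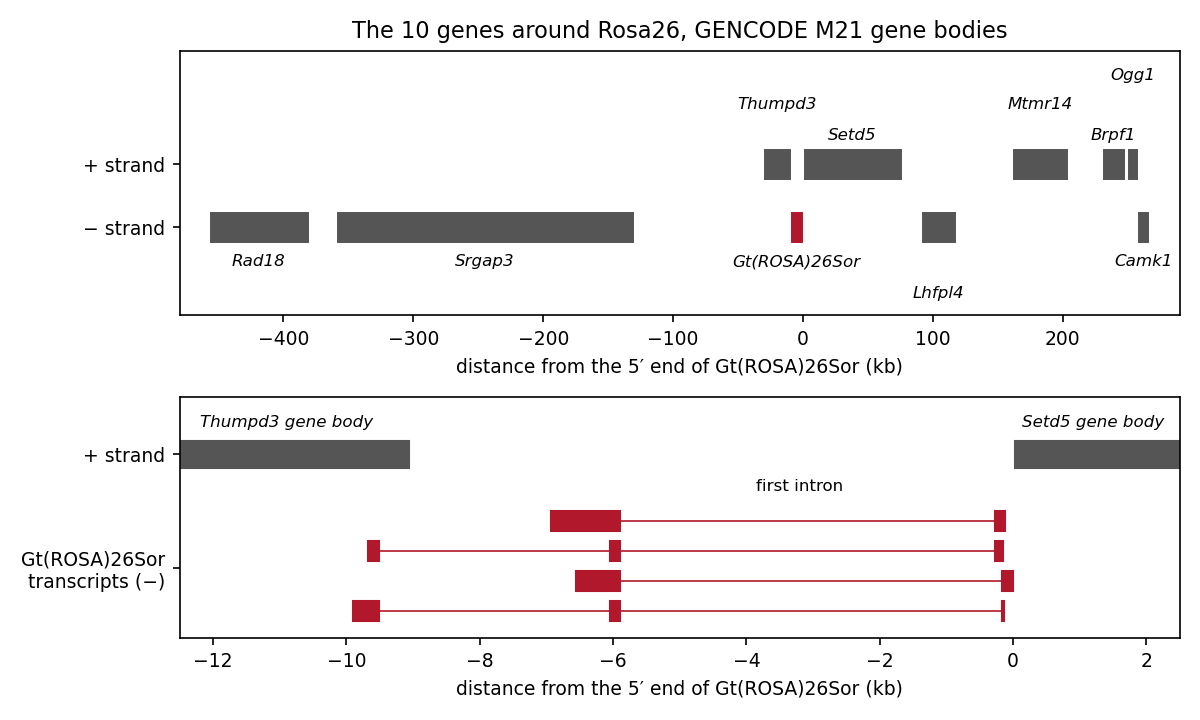
The upper panel draws the bodies of the 10 genes by strand against distance from the 5′ end of Gt(ROSA)26Sor in kb, and the lower panel enlarges the 4 Gt(ROSA)26Sor transcripts, with exons as boxes and introns as lines. A gap of 31 bases separates Setd5 from Gt(ROSA)26Sor, and the end of Thumpd3 overlaps exon 3 of Gt(ROSA)26Sor, which only some of the transcripts have.

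The first exons are shown because they mark where Rosa26 transcription starts, between Setd5 and the large first intron. Sequences are from the GENCODE M21 transcripts, on the minus strand, 5′ to 3′. The exon with the most upstream start, chr6:113077174-113077333, has 160 bases, and another, chr6:113077068-113077210, has 143. Capitals mark the 37 bases that both share.
Exon 1 with the most upstream start: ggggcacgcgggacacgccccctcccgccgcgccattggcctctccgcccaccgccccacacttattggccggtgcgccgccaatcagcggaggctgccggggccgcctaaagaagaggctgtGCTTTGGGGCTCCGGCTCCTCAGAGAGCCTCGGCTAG
Exon 1 with the downstream donor: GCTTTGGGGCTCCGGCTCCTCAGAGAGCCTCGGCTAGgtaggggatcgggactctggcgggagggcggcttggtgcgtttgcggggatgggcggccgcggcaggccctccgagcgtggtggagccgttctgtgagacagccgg

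The spliced junctions of exons 1 and 2 are shown because each annotated Gt(ROSA)26Sor transcript holds 1 of them. The last 30 bases of exon 1 stand in lower case and the first 30 of exon 2 in capitals. An annotated exon 1 of 18 bases also uses the upstream donor, and its transcript holds only the last 18 of the lower-case bases. The counts are summed per gene, so they do not tell which exons or junctions the reads came from.
Junction from the downstream donor: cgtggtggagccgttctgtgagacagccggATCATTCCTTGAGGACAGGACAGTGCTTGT
Junction from the upstream donor: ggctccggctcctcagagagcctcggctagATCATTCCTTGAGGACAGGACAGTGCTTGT

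Gt(ROSA)26Sor was lower in DAF-TM cells. It had 39.1 and 44.1 CPM in DAF-TM libraries 1 and 2, against 64.3, 87.8 and 50.6 CPM in control libraries 1 to 3. Every DAF-TM library lay below every control library, and the controls spread more widely, with control library 2 highest. The raw counts were 434 and 521 in the DAF-TM libraries and 607, 1034 and 371 in the controls. The mean was 41.6 ± 3.48 CPM in DAF-TM cells and 67.6 ± 18.8 CPM in control cells (SD, n = 2 and 3), a 1.63-fold fall (log2 fold change -0.70, SE 0.17, 95% interval -1.05 to -0.36, edgeR adjusted p = 0.0181).

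Gt(ROSA)26Sor was thus 1 of the 10 members to fall, and the other 9 did not pass the test in either direction. Of 18767 genes tested, 7 fell, or 0.0373%, 70 rose, or 0.373%, and 77 changed either way, or 0.41%. The count of falling genes depended on the setting, and ran from 0 with upper-quartile factors or DESeq2 to 16 with a replicate block or without control library 2. The Gt(ROSA)26Sor call was lost in 7 of 12 alternatives. These were upper-quartile factors (log2 fold change -0.62, edgeR adjusted p = 0.245), limma-voom (-0.68, 0.0851), DESeq2 (-0.73, 0.271) and 4 of the 5 fits that left out 1 library: without DAF-TM library 1 (log2 fold change -0.63, edgeR adjusted p = 0.518), DAF-TM library 2 (-0.79, 0.137), control library 1 (-0.74, 0.125) and control library 2 (-0.47, 0.362). In sorted cells of this kind, fewer cells that express a gene and less of its RNA per cell cannot be told apart.

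**Figure D2:**
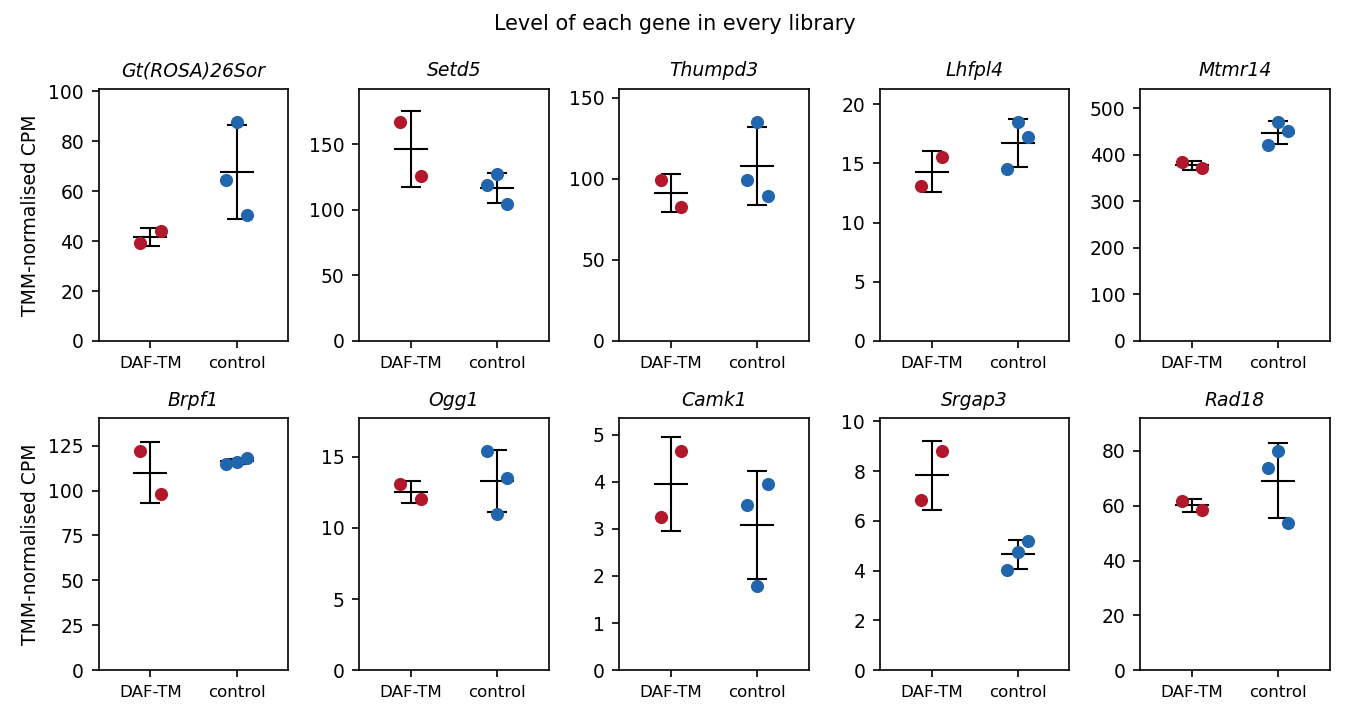
Points give the TMM-normalised CPM of each gene in the 2 DAF-TM libraries (red) and the 3 control libraries (blue), with the mean and SD in black, on axes that start at 0. Gt(ROSA)26Sor and Mtmr14 are lower in every DAF-TM library than in any control, Srgap3 is higher, and the other 7 genes overlap.

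Setd5, a SET domain protein that associates with the HDAC3 and NCoR co-repressor, leaves the same short stretch of DNA in the opposite direction. Its level was 167 and 126 CPM in DAF-TM libraries 1 and 2, against 119, 127 and 104 CPM in the controls. DAF-TM library 1 was the highest of all, and DAF-TM library 2 fell within the range of the controls. The difference did not pass (log2 fold change 0.33, SE 0.16, 95% interval 0.00 to 0.65, unadjusted p = 0.0469, edgeR adjusted p = 0.86). Without DAF-TM library 1 it was 0.10.

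The ratio of the 2 counts within a library does not depend on scaling between libraries. There were 0.234 and 0.351 Gt(ROSA)26Sor counts per Setd5 count in the DAF-TM libraries, against 0.538, 0.694 and 0.486 in the controls. The groups did not overlap, and the mean log2 ratio was -1.80 ± 0.41 in DAF-TM cells and -0.82 ± 0.26 in control cells (SD, n = 2 and 3). The difference of -0.98, a 1.98-fold lower ratio in DAF-TM cells, had an exact two-sided permutation p = 0.2. This p was taken as 2 times the smaller one-sided p, and under that rule groups of 2 and 3 allow none smaller. The difference ran from -1.28 without DAF-TM library 2 to -0.69 without DAF-TM library 1.

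**Figure D3:**
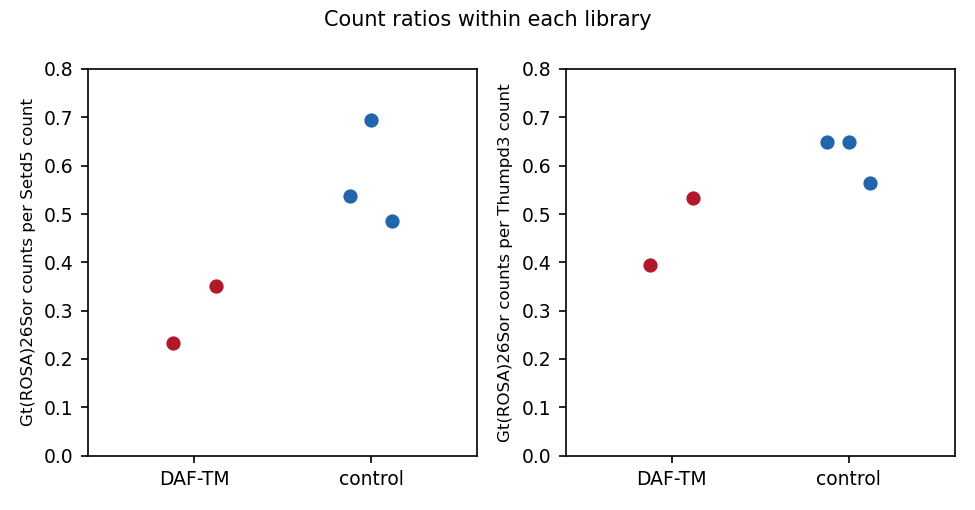
Each point is the number of Gt(ROSA)26Sor counts per count of Setd5 (left) or Thumpd3 (right) in 1 library, for DAF-TM (red) and control (blue). Both DAF-TM libraries lie below all 3 controls in both panels, at 0.234 and 0.351 against 0.486 to 0.694 for Setd5.

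Thumpd3, which with its partner Trmt112 methylates guanosines of tRNA in human cells, converges on the 3′ end of Rosa26. It had 99.2 and 82.6 CPM in DAF-TM libraries and 99.1, 135 and 89.6 CPM in controls. The groups overlapped, with control library 2 again highest, and the test was not passed (log2 fold change -0.25, SE 0.17, 95% interval -0.58 to 0.08, edgeR adjusted p = 0.945). The value was -0.40 without DAF-TM library 1 and -0.06 without control library 2. Counts of Gt(ROSA)26Sor per Thumpd3 count were 0.395 and 0.533 in DAF-TM libraries and 0.649, 0.649 and 0.565 in controls, also without overlap. That difference was -0.43 on the log2 scale (exact two-sided permutation p = 0.2, the smallest possible under the same rule). It ran from -0.65 when DAF-TM library 2 was left out to -0.22 when DAF-TM library 1 was. How reads from the 145 shared bases were assigned is uncertain for both genes, since the strand setting of the counting was not given in the sources used here.

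Ratios to 3 more neighbours were computed, so that there were 5 in all, and the groups did not overlap in 3 of the 5. All 5 share the Gt(ROSA)26Sor count, which itself did not overlap in CPM, so they are not independent of it or of each other. In CPM the groups did not overlap in 20.3% of all genes tested. Per Rad18 count there were 0.634 and 0.755 Gt(ROSA)26Sor counts in DAF-TM libraries and 0.870, 1.099 and 0.944 in controls, without overlap (log2 difference -0.48, exact two-sided permutation p = 0.2). Per Mtmr14 count there were 0.102 and 0.119 in DAF-TM libraries and 0.153, 0.186 and 0.112 in controls, and control library 3 lay between the DAF-TM libraries (-0.42, exact p = 0.4). Per Brpf1 count there were 0.320 and 0.450 in DAF-TM libraries and 0.562, 0.756 and 0.430 in controls, where control library 3 again lay between them (-0.58, exact p = 0.4).

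Srgap3 encodes a Slit-Robo GTPase-activating protein known from the developing brain, and its gene lies 120.2 kb from Gt(ROSA)26Sor. It was scarce, with 6.85 and 8.8 CPM in DAF-TM libraries (76 and 104 counts) and 4.03, 4.76 and 5.18 CPM in controls (38, 56 and 38 counts). Both DAF-TM values lay above all controls. The log2 fold change of 0.75 (SE 0.34, 95% interval 0.09 to 1.42, unadjusted p = 0.0269) did not pass the adjustment over all genes (edgeR adjusted p = 0.795). With Gt(ROSA)26Sor and Setd5 it made 3 of 10 members with an unadjusted p under 0.05, against 5.74% of all genes tested. A count of 38 has an exact 95% Poisson interval of 26.9 to 52.2, which covers counting error only.

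Mtmr14, a phosphatase of phosphoinositides that lies 160.5 kb from Gt(ROSA)26Sor, was the most abundant member. It had 384 and 371 CPM in DAF-TM libraries and 421, 471 and 451 CPM in controls. The groups did not overlap, but the step was small (377 ± 9.79 CPM in DAF-TM cells and 448 ± 25.4 CPM in control cells; SD, n = 2 and 3) and did not pass (log2 fold change -0.25, SE 0.17, 95% interval -0.57 to 0.08, edgeR adjusted p = 0.945). With Gt(ROSA)26Sor and Srgap3, this made 3 of 10 members whose groups did not overlap, against 20.3% of all genes tested. DAF-TM was lower in 2 of them, against 9.02% of all genes, and higher in 1, against 11.3%.

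The members that act on DNA and chromatin gave small values. Rad18, the ubiquitin ligase that marks PCNA at stalled replication forks, had 61.8 and 58.4 CPM in DAF-TM libraries and 73.9, 79.9 and 53.6 CPM in controls (log2 fold change -0.21, 95% interval -0.54 to 0.13). Without 1 library the Rad18 value ran from -0.34 (control library 3 left out) to -0.09 (control library 2). Ogg1, the glycosylase that removes oxidised guanine from DNA, had 13.1 and 12.0 CPM in DAF-TM libraries and 15.4, 11.0 and 13.5 CPM in controls. Its log2 fold change was -0.08 (95% interval -0.56 to 0.40), and 0.04 without control library 1. In each of these genes the groups overlapped.

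Brpf1, the scaffold that joins the acetyltransferases Kat6a and Kat6b to chromatin, had 122 and 98.0 CPM in DAF-TM libraries, either side of the controls at 115, 116 and 118 CPM. Its log2 fold change of -0.08 (95% interval -0.40 to 0.25) was 0.07 without DAF-TM library 2. Rad18 (0.947), Ogg1 (0.984) and Brpf1 (0.974) had the edgeR adjusted p-values given in brackets. None of their intervals reached the log2 fold change of Gt(ROSA)26Sor, -0.70, but each overlapped its interval of -1.05 to -0.36. Differences in fold change between genes were not tested.

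Camk1, a kinase switched on by calcium and calmodulin, and Lhfpl4, which holds GABA-A receptors at inhibitory synapses, were both low. Lhfpl4 had 13.1 and 15.5 CPM in DAF-TM libraries and 14.5, 18.5 and 17.2 CPM in controls (log2 fold change -0.23, 95% interval -0.67 to 0.21, edgeR adjusted p = 0.949), and -0.36 without DAF-TM library 2 or -0.12 without DAF-TM library 1. Camk1 had 36 and 55 counts in DAF-TM libraries and 33, 21 and 29 counts in controls, or 3.25 and 4.65 CPM against 3.5, 1.78 and 3.96 CPM. Its 95% interval was wide, from -0.41 to 1.19 around 0.39, and its value was 0.11 without DAF-TM library 2 and 0.09 without control library 2. Ogg1 and Camk1 converge and share 232 exonic bases, so their counts carry the same uncertainty as those of the Thumpd3 end.

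Levels of different genes were compared as CPM per kb of exon, with exon lengths from the GENCODE basic set. These are 2163 bases for Thumpd3 and 1496 for Camk1, against 6554 and 5975 over all annotated transcripts. The annotation used in counting was not given, so the order below, above all the place of Thumpd3 beside Gt(ROSA)26Sor, depends on the basic set. Mtmr14 led, at 141 ± 3.66 in DAF-TM cells and 167 ± 9.48 in control cells (SD, n = 2 and 3, here and in the rest of this paragraph). Thumpd3 came next, at 42 ± 5.42 in DAF-TM cells and 49.9 ± 11.1 in control cells. Gt(ROSA)26Sor stood at 26.5 ± 2.21 CPM per kb in DAF-TM cells and 43 ± 12 in control cells. In control cells its range overlapped that of Thumpd3, whereas in DAF-TM cells it was near Brpf1 (22.5 ± 3.49), Rad18 (22.1 ± 0.89) and Setd5 (21.5 ± 4.34). The control values of that trio were 23.7 ± 0.315, 25.4 ± 5.07 and 17.1 ± 1.69 CPM per kb, in the same order, and the first pair did not differ beyond its spread. Below them in both groups came Ogg1 (8.1 in DAF-TM cells and 8.57 in control cells), Lhfpl4 (3 and 3.51), Camk1 (2.64 and 2.06) and Srgap3 (0.877 and 0.522).

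Across the members the median log2 fold change was -0.14, against 0.03 over all genes tested, with 7 negative and 3 positive values. Within 1 Mb of Gt(ROSA)26Sor 36 genes were tested, the members included. Of these 1 fell, Gt(ROSA)26Sor, and none rose (edgeR; 4 had an unadjusted p under 0.05, 2 in each direction). The median over this window was 0.01, with 18 negative and 18 positive values, and the groups did not overlap in 25% of its genes, against 20.3% of all genes.

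Among the 26 genes in the window that are no member, none passed, and their median was 0.08. Vhl, the substrate receptor of a ubiquitin ligase that marks hypoxia-inducible factors, had 76.2 and 75 CPM in DAF-TM libraries and 95, 114 and 93.4 CPM in controls. Its log2 fold change of -0.42 (unadjusted p = 0.0127, edgeR adjusted p = 0.668) came without overlap between the groups. Prrt3 (0.54, edgeR adjusted p = 0.949) and Ghrl, the gene of the stomach hormone ghrelin (0.39, 0.967), had the other large values in the window, at means of 2.35 and 1.09 CPM. Widening the window to 5 Mb (81 genes tested, median -0.01) and to 10 Mb (145 genes, 0.04) added no call. At 20 Mb (302 genes, median 0.07) Gt(ROSA)26Sor was still alone in falling and 5 genes had risen, or 1.66%, against 0.302% (2 of 662 genes, median 0.05) on chromosome 6 beyond 20 Mb and 0.373% of all genes. The 5, named after their values were seen, lay 14.0 to 17.1 Mb away. They were the cyclin gene Ccnd2 (log2 fold change 0.74, edgeR adjusted p = 0.0128) and 4 genes of killer cell lectin-like receptors, Klrb1c (1.51, 0.00594), Klrd1 (2.28, 0.000924), Klrk1 (1.69, 0.00103) and Klra9 (1.91, 0.0141). Klrb1c, Klrd1 and Klrk1 also belong to the list of natural killer cell markers.

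**Figure D4:**
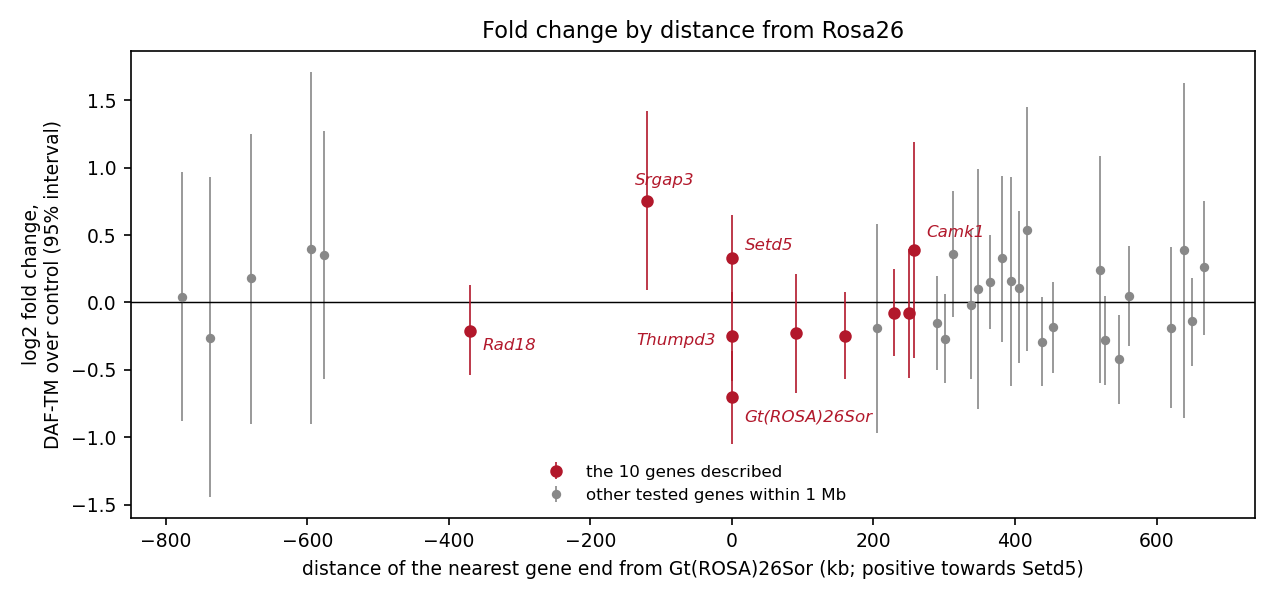
Log2 fold changes (DAF-TM over control) with 95% intervals are plotted against distance from Gt(ROSA)26Sor in kb, positive towards Setd5, for the 10 members (red) and the 26 other tested genes within 1 Mb (grey). Gt(ROSA)26Sor, at -0.70, is the lowest point, and the values of its neighbours lie on both sides of 0.

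Partners of the members elsewhere in the genome were read from 9 lists. None of the 94 different genes that are no member passed (edgeR). Unadjusted p was under 0.05 in 4 of the 94, against 5.74% of all genes tested. DESeq2 and limma-voom also called 0 of the 94. The median log2 fold change over these genes was -0.09. All 16 genes of PCNA ubiquitylation and damage tolerance, Rad18 included, had negative values (median -0.18), against 46.1% of all genes tested, but 0 of the 16 passed and 0 had an unadjusted p under 0.05 (edgeR). Their summed level overlapped between groups, at 2117 and 1975 CPM in DAF-TM libraries and 2315, 2589 and 2098 CPM in controls. The lowest p was that of Rev3l, the catalytic subunit of polymerase zeta, at 176 ± 1.81 CPM in DAF-TM cells and 215 ± 25.7 CPM in control cells (SD, n = 2 and 3; edgeR adjusted p = 0.926). In the 15 genes of base excision repair the median was -0.08, and Apex1, the endonuclease that cuts at abasic sites, had the lowest p (log2 fold change -0.41, edgeR adjusted p = 0.919). The 17 myotubularin and PIKfyve genes had a median of -0.14, with Mtm1 at -0.47 (edgeR adjusted p = 0.732). Most values were negative in other lists too: 14 of 17 in this list, 11 of 15 in base excision repair and 9 of 12 in the calcium-calmodulin cascade. The BRPF and MYST list had 6 of 9, tRNA methylation 4 of 6 and Slit-Robo 6 of 12. The HDAC3 and NCoR list and the GABA-A receptor list had 3 of 8 each.

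The remaining lists gave medians close to 0. That of the 12 genes of the calcium-calmodulin kinase cascade was -0.08, with the calmodulin gene Calm3 at -0.41 (edgeR adjusted p = 0.716). In the 6 tRNA methylation genes it was -0.09, with Trmt11 at -0.33 (edgeR adjusted p = 0.919). It was -0.06 in the 9 BRPF and MYST acetyltransferase genes, with Brd1 at 0.14 (edgeR adjusted p = 0.955), and 0.06 in the 8 genes around HDAC3 and NCoR. The 12 Slit-Robo genes had 0.02 and the 8 tested GABA-A receptor partners 0.08, and the members Setd5, Srgap3 and Lhfpl4 had the lowest p in those 3 lists.

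Gene profiles over the 5 libraries were also set beside that of Gt(ROSA)26Sor, by the root mean square difference of centred log2 CPM, among 9048 genes with a mean of at least 10 CPM. The nearest were Trdmt1 (0.12), Elp4 (0.12), Actr2 (0.13), Tfrc (0.13) and Gtf2a2 (0.14), none of them on chromosome 6. None of these 5 passed the test between groups, with edgeR adjusted p from 0.0922 for Actr2 to 0.685 for Elp4. Thumpd3 ranked 607 (0.26), the nearest of the members above that level, Rad18 801 (0.27) and Setd5 8007 (0.54).

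Transcripts of other cell types also differed between the groups. Over all genes tested 0.373% rose, the share to set beside each list here. Of 10 natural killer cell markers 8 rose, and their summed level was 83.5 to 144 CPM in DAF-TM libraries and 35.4 to 52.8 CPM in controls. Of 10 macrophage markers 4 rose (76.5 to 106 CPM in DAF-TM libraries and 43.4 to 49.9 CPM in controls), of 10 T cell markers 2 (270 to 282 and 275 to 310 CPM), of 8 dendritic cell markers 1 (256 to 279 and 247 to 289 CPM) and of 6 plasma cell markers 1 (2815 to 3846 and 2847 to 4786 CPM). None of 7 neutrophil markers (24.7 to 65.9 and 75.7 to 219 CPM) or of 4 tested erythroid markers (7.76 to 11.8 and 7.94 to 10.2 CPM) passed. Log2 fold changes were positive in 10 of 10 natural killer (median 1.62), 10 of 10 macrophage (1.02) and 9 of 10 T cell markers (0.96). They were positive in 6 of 8 dendritic (0.54), 5 of 6 plasma cell (0.39), 3 of 7 neutrophil (-1.56) and 2 of 4 erythroid markers (0.13). Unadjusted p was under 0.05 (edgeR) in 10 natural killer, 7 T cell and 7 macrophage markers, against 5.74% of all genes. In the dendritic, plasma cell, neutrophil and erythroid lists the counts were 3, 2, 2 and 0. Outside the erythroid list, where 1 or 2 genes per library had a count of 0, no marker was at 0 in any library. The part of such cells in the values of Gt(ROSA)26Sor and its neighbours was not tested.

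**Figure D5:**
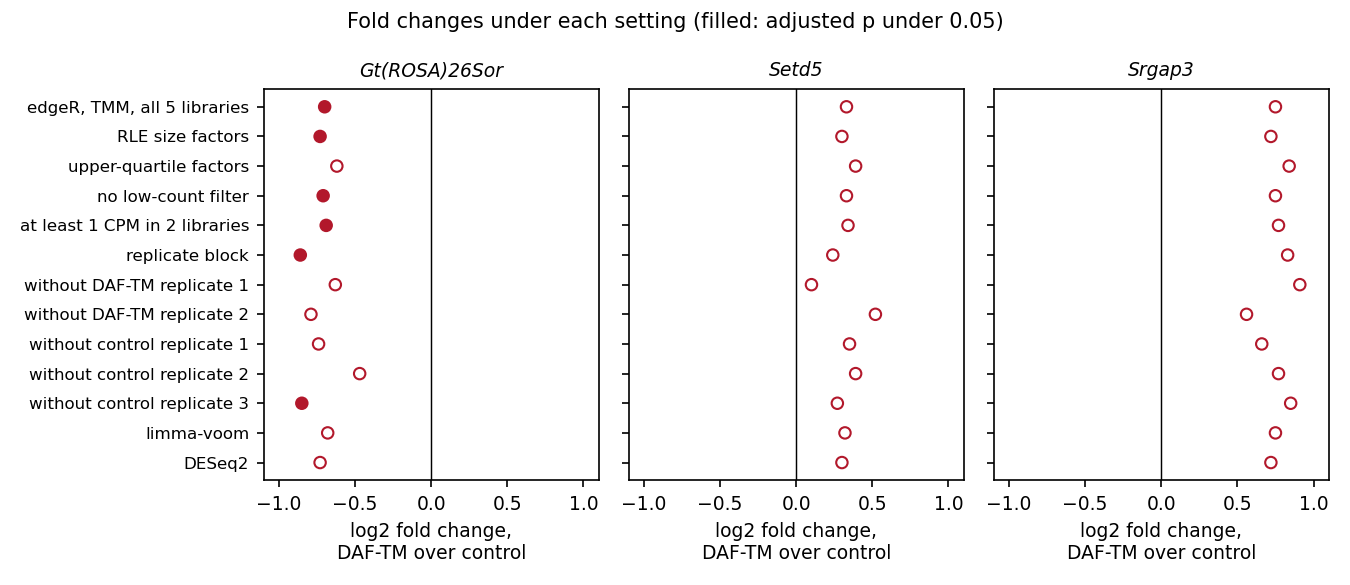
Log2 fold changes (DAF-TM over control) of Gt(ROSA)26Sor, Setd5 and Srgap3 are shown under the 13 settings named on the left, with filled points where the adjusted p was under 0.05. Gt(ROSA)26Sor stays between -0.86 and -0.47 and is filled in 6 settings, while Setd5 (0.10 to 0.52) and Srgap3 (0.56 to 0.91) are never filled.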

How the data were processed

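Libraries were made from 10 ng of RNA with an oligo-dT kit (SMART-Seq v4) and read as 100 nt single ends, per the labels' protocols. The file header names mm10. The submitters' processing notes list bcl2fastq, HISAT2 and featureCounts without versions. Annotation, strand setting and handling of multi-mapping reads were not given in the sources used here.

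The values are raw counts, deposited by the authors per gene symbol without normalization. From them a quasi-likelihood model was fitted in edgeR 4.0.16 under R 4.3.3, with filterByExpr, TMM scaling, robust glmQLFit and a two-sided glmQLFTest. P-values were adjusted by Benjamini and Hochberg's method across 18767 genes, with 0.05 as the threshold. All 10 members passed the low-count filter. The SE is the log2 fold change divided by the root of F. The fit had 3 residual degrees of freedom and a median of 1153 prior ones, so p-values rest mainly on the spread pooled over genes. They measure the spread between libraries, which may be technical. Ratios used a pseudocount of 0.5 in the test.

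Positions came from GENCODE M21 and, for windows, RefSeq GRCm38.p6, to which 23194 names were matched. In 27 rows a date stood in place of a symbol, at most 0.266% of a library's counts. Members, lists and tests were chosen with earlier results of these data known. Neighbours were named when past the threshold or among the 3 largest changes of at least 1 CPM, and list genes when past the threshold or of lowest p. For marker lists of other cell types counts, sums and median log2 fold changes are given.

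Alternatives were RLE and upper-quartile factors, 2 other low-count filters, limma-voom (limma 3.58.1), DESeq2 1.42.0, a block for the replicate number, each library left out, and other windows and pseudocounts.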

Additional observations from a re-analysis of the deposited data

How the results depend on the processing

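Gt(ROSA)26Sor was lower in DAF-TM cells under all 12 alternatives, and 5 of them called it. It was not called with upper-quartile factors (log2 fold change -0.62, adjusted p = 0.245), limma-voom (-0.68, 0.0851) or DESeq2 (-0.73, 0.271), nor in 4 of 5 fits without 1 library, where the value ran from -0.79 to -0.47. The remaining one, without control library 3, called it at -0.85. The count of members and of genes within 1 Mb that passed was therefore 0 in place of 1 under upper-quartile factors, limma-voom and DESeq2, and 0 to 1 when 1 library was left out. Windows of 0.5 and 2 Mb gave 1. Over all genes 39 passed with upper-quartile factors, 49 with limma-voom, 28 with DESeq2 and 14 to 118 without 1 library, in place of 77. The median over all genes was 0.10 with upper-quartile factors and 0.03 with TMM, which bears on all members alike. Of the other members, Brpf1 (-0.25 to 0.07) and Ogg1 (-0.21 to 0.04) turned in 1 fit each when a library was left out, and the rest kept their sign in every alternative. The causes were not tested. The count ratio of Gt(ROSA)26Sor to Setd5 ran from -1.28 to -0.69 on the log2 scale without 1 library and that to Thumpd3 from -0.65 to -0.22, with -0.97 and -0.43 at a pseudocount of 10. A fit without 1 DAF-TM library assumes that the other varies as the controls do.

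With the replicate number as a block, Gt(ROSA)26Sor stood at -0.86 (adjusted p = 0.00916), 61 genes passed, and the ratios were -1.09 and -0.50. Deviations of same-numbered libraries from their group means had correlations of -0.13 and -0.25 over 18767 genes. With 2 DAF-TM libraries these deviations are mirror images of each other. The correlations therefore cannot decide whether the numbers pair the libraries. No label ties a number to a litter or day, and the main fit used no pairing.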
